A study of Bos taurus with 24 samples.

Results

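The testes of MD and LD bulls were compared, 16 of the 24 Holstein bulls in the study, chosen by the diet label of each library. The 8 MD bulls were fed a medium diet, the control diet of the study, that held 17.0% crude protein (CP) and 66.0% total digestible nutrients (TDN). The 8 LD bulls received barley silage without concentrate, at 12.2% CP and 62.9% TDN. Calves were first fed milk, in a larger daily amount in the MD than in the LD group, before the change to these silage-based diets. Feeding differed from 2 to 32 wk of age, and every bull was then kept on the MD until testicular tissue was collected at 72 wk, so the tissue was taken long after the diets had become the same. The 8 bulls of the HD group (20.0% CP and 67.9% TDN) entered the fit, where they shared in the estimate of the spread and the filter on low counts, and their levels are given beside a few features. One library was made per bull from pieces of testicular parenchyma, and each bull was 1 replicate. Bulls are named by diet and by a number from 1 to 8, given in the order of deposition, which pairs no bulls across diets.

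The testis makes sperm in the seminiferous tubules, where germ cells divide and mature in the care of Sertoli cells, and makes testosterone in the Leydig cells between the tubules. Feeding of the calf before puberty is known to affect the age at puberty and the size of the testes. Both steroid synthesis and sperm formation depend on mitochondria, whose own small genome encodes core subunits of the respiratory chain. These include COX1 and COX3 (subunits of cytochrome c oxidase, which passes electrons to oxygen), ATP6 (part of the proton channel of ATP synthase) and CYB (cytochrome b, of the complex that feeds cytochrome c).

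A library held 13758514 ± 1509014 counts on genes in MD bulls (SD, n = 8) and 14756024 ± 2027372 in LD bulls (SD, n = 8), with a range of 11676948 to 19470903 over the 16 libraries. The difference in means of -997510 counts was -323956 without LD bull 3. A count is a read on an exon bin, a part of an exon, and the count of a gene is the sum over its bins. Of 24525 gene features, 20890 had at least 1 count in the 16 libraries, and 15660 had counts in every one of them. Seen as pairs, 56 in all, no libraries of one diet were alike within sampling noise (lowest chi-square per degree of freedom 10.2). LD bull 2 stood apart by its high mitochondrial counts and MD bull 3 by its large share of reads outside exons.

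The mitochondrial features had lower mean levels in MD than in LD bulls, but their ranges overlapped and none passed the test. COX1 (ENSBTAG00000043561) is the feature with the most counts in these libraries. Its level, in CPM (counts scaled to a TMM-normalized library of fixed size), was 4893 in the lowest MD bull, 10705 at the median and 28808 in the highest. Among LD bulls it was 7120 in the lowest, 16161 at the median and 45243 in the highest. Only MD bulls 2, 4 and 7 lay above the LD median, MD bull 3 lay below every LD bull, and LD bull 2 above every MD bull. The means were 14998 ± 8589 CPM in MD and 19048 ± 11767 CPM in LD bulls (SD, n = 8 each). MD over LD gave a log2 fold change of -0.34 (SE 0.39, 95% interval -1.14 to 0.45, edgeR quasi-likelihood test adjusted p = 1.00, unadjusted p = 0.381), and the exact permutation test on log2 CPM gave a two-sided p of 0.398. In fold terms the interval ran from 0.454 to 1.37. Without LD bull 2, the log2 fold change was -0.03, without MD bull 3 it was -0.21, and without MD bull 2 it was -0.55. Since the tissue is a mixture of cell types, fewer cells rich in a transcript and less of it per cell cannot be told apart, here and in every result that follows.

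COX3 and ATP6 overlap in the mitochondrial genome, and the counts of both fall in a feature that joins them with another gene, so they were not separated here. The level of this joined feature was 4180 CPM in the lowest MD bull, 9038 at the median and 22881 in the highest. In LD bulls it was 6318 in the lowest, 13914 at the median and 34131 in the highest. As for COX1, 3 MD bulls were above the LD median and the same bulls stood at the extremes. Means were 12449 ± 7078 CPM in MD and 15375 ± 8608 CPM in LD bulls (SD, n = 8 each). The log2 fold change was -0.30 (SE 0.36, 95% interval -1.03 to 0.42, edgeR adjusted p = 1.00, unadjusted p = 0.399). It was -0.03 without LD bull 2, -0.17 without MD bull 3 and -0.49 without MD bull 2. The feature has 5 exon bins. The share of its counts on each bin did not differ between the diets beyond the spread between bulls, with two-sided exact permutation p from 0.400 to 0.874 before adjustment.

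CYB (ENSBTAG00000043550) was measured at a lower level. It was at 1473 CPM in the lowest MD bull, 2843 at the median and 7629 in the highest, against 2059, 4171 and 8676 CPM in LD bulls. The order of the bulls at the extremes was that of COX1. The means were 4036 ± 2399 and 4430 ± 2093 CPM (SD, n = 8 each). The log2 fold change of -0.13 was smaller than its error (SE 0.37, 95% interval -0.90 to 0.63, edgeR adjusted p = 1.00, unadjusted p = 0.723), and without LD bull 2 its sign turned, to 0.08. Without MD bull 3 the log2 fold change was -0.0044, and without MD bull 2 it was -0.33.

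**Figure D1:**
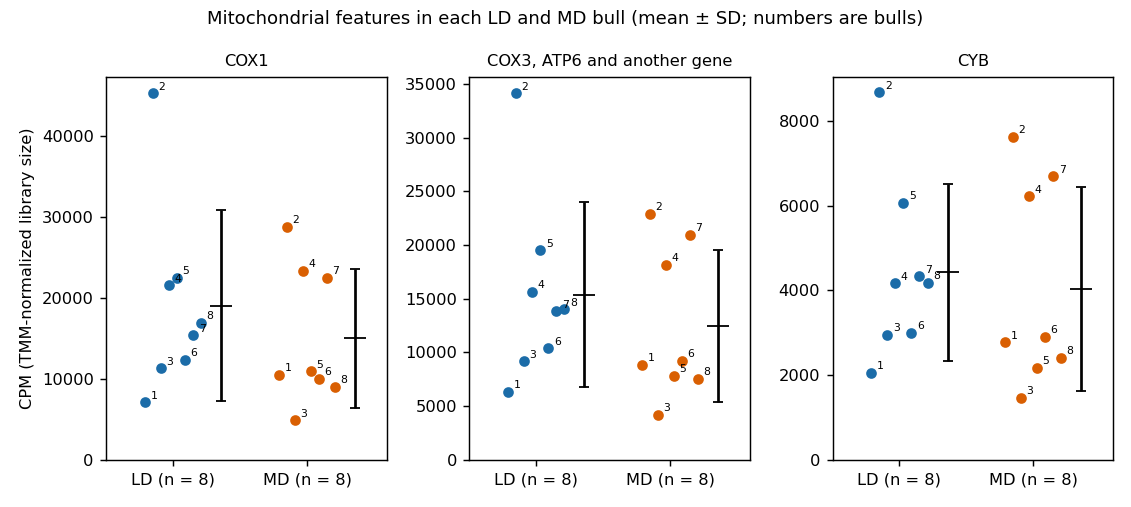
Level of COX1, of the joined feature of COX3 and ATP6, and of CYB in CPM (vertical axis, TMM-normalized) for 8 LD and 8 MD bulls. Points are bulls with their numbers, and bars are mean ± SD. The diets overlap in each panel, LD bull 2 is above all MD bulls, and MD bulls 2, 4 and 7 are apart from the other MD bulls.

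The mitochondrial features moved together from bull to bull, so their ratios within a library varied less than their levels. On the log2 scale the ratio of COX1 to CYB was 1.905 ± 0.19 in MD bulls and 2.03 ± 0.23 in LD bulls (SD, n = 8, exact permutation p = 0.232, two-sided, adjusted over 3 ratios p = 0.349). COX1 to the joined feature stood at 0.27 ± 0.13 and 0.28 ± 0.11 (exact permutation p = 0.841). The joined feature to CYB stood at 1.64 ± 0.10 and 1.75 ± 0.13 (exact permutation p = 0.0709, adjusted p = 0.213). No ratio differed between the diets beyond the spread between bulls.

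Within the 16 libraries, the level of these features went with the share of reads that fell outside exons. Its base was the counts on bins plus the reads assigned to no bin. A read over several bins may count more than once there, so it is not exactly a share of reads. That share was 11.4% in the lowest MD bull, 14.2% at the median and 21.4% in the highest, against 10.3%, 13.4% and 15.96% in LD bulls, and the diets overlapped. Without MD bull 3 the mean difference of MD from LD was 0.232 percentage points. The 7 bulls with less than 13% of reads outside exons (3 MD and 4 LD bulls) had 16950 to 45243 CPM of COX1. The 9 bulls with more (5 MD and 4 LD bulls) had 4893 to 15371 CPM. Over the 16 bulls, the correlation of log2 COX1 with the share was r = -0.91 (permutation p = 1e-05, the smallest that the resamples can give, adjusted over 3 features p = 1e-05) and rho = -0.94 (permutation p = 2e-05, adjusted p = 3e-05). After MD bull 3 and LD bull 2 were left out, whose shares were farthest from the median, r was -0.93. Within diets r was -0.93 in the 8 MD and -0.95 in the 8 LD bulls. It was -0.89 in the 7 bulls with the lower and -0.87 in the 9 bulls with the higher shares. For the joined feature and CYB, r was -0.91 and -0.88 over the 16 bulls. Mitochondrial transcripts are themselves counted as exonic, so the 2 measures are not independent in a library. Adding this share to the model as a covariate put the log2 fold change of MD over LD at 0.01 for COX1, -0.01 for the joined feature and 0.15 for CYB. The part of the share in the lower MD means was not tested further.

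Over all genes, testes of MD and LD bulls could not be told apart by their transcript levels. After the Benjamini-Hochberg adjustment, edgeR's quasi-likelihood test called 0 of the 15005 features with enough counts (0%) at the threshold of 0.1, and the smallest adjusted p was 1.00. A single call would have needed an unadjusted p of 6.66e-06, and the smallest was 0.000897. At an unadjusted p under 0.05 stood 161 features (1.07%), 82 of them higher (0.546%) and 79 lower (0.526%) in MD bulls. A test at this level passes 750.25 of 15005 features on average when p-values are spread evenly. Under 0.01 there were 23 features against 150.05, and under 0.001 there was 1 against 15.005. Of all p-values 64.8% were over 0.5, and their median was 0.620. The count of 161 was 123 without MD bull 3 and 143 without LD bull 2, and it was 269 without MD bull 2 and 272 without MD bull 7. The balance of directions moved too, with 51 higher and 72 lower in MD bulls without MD bull 3, and 172 higher and 100 lower without MD bull 7. DESeq2 put 1 feature past the threshold with its beta prior and 0 with its defaults.

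The p-values came from a fit that shared its estimate of the spread among 24 bulls. The biological coefficient of variation, the part of the relative spread between bulls that counting error does not give, was 0.262 within MD, 0.241 within LD and 0.387 within HD bulls, and 0.303 in the shared fit. When only the MD and LD libraries were fitted, 254 of 14795 features (1.72%) were at an unadjusted p under 0.05, again with 0 calls. Of these, 137 were among the 161. This count was 406 without LD bull 1, 493 without MD bull 2 and 534 without MD bull 7, each with 0 calls.

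Differences in level were small. The median log2 fold change of MD over LD was 0.0028, its quartiles were -0.091 and 0.11, and 85.4% of features lay within 0.25 of no change. MD bulls had the higher fitted level in 7632 features and LD bulls in 7373. Fold changes ran from -3.34 to 3.27. Only 40 features differed by more than 1 on the log2 scale, 19 higher and 21 lower in MD bulls, and 28 of them were at an unadjusted p under 0.05. Their median level was 2.73 CPM, against 18.6 CPM over all features tested. The 161 features had changes of 0.26 to 3.34 in size with a median of 0.69, a median level of 3.82 CPM, and a median of 10 exon bins against 9 over all features.

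**Figure D2:**
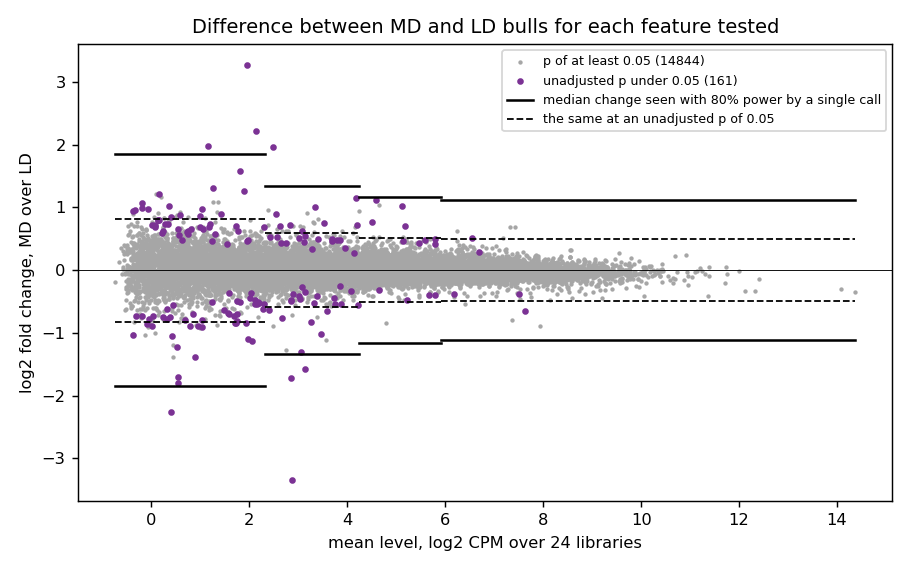
Log2 fold change of MD over LD bulls (vertical axis) against the mean level in log2 CPM (horizontal axis) for 15005 features. Purple points are the 161 features at an unadjusted p under 0.05. Solid lines give the median change that a single call would find with 80% power, dashed lines the same at an unadjusted p of 0.05, for 4 ranges of level. Most purple points are at low levels, and the cloud narrows to the right.

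The size of change that 8 bulls a side could have shown was computed from the same fit. The standard error of the log2 fold change had a median of 0.20, and the 95% interval reached 0.41 to either side, or 1.33-fold. For 10% of features it reached no more than 0.28, and for 90% no more than 0.68. The interval lay within a 2-fold change in either direction for 13817 features (92.1%) and within a 1.5-fold change for 9089 (60.6%). For these features, larger changes are outside the interval. At an unadjusted p of 0.05, a feature of median precision had 80% power for a log2 fold change of 0.59 (1.5-fold). A lone call after adjustment needed an observed change of 1.12 (2.18-fold), and 80% power for it needed a true change of 1.32 (2.50-fold). Such power for a 2-fold change was reached by 2941 features (19.6%). Thus a change of 1.5-fold in a single gene, with all others equal, would usually have been missed after adjustment in this fit. Fewer p-values were small than an even spread would give, so the standard errors may be too wide for this contrast. The sizes given here may then be too large, which was not tested.

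What could be seen depended on the level of the feature. In the 3752 features of lowest level (0.601 to 4.996 CPM), 80% power at an unadjusted p of 0.05 needed a median change of 1.77-fold, and 80% power for a lone call after adjustment needed 3.61-fold. In the 3751 features of highest level (60.7 to 21253 CPM), the same needed 1.41-fold and 2.16-fold. The ranges between them (4.997 to 18.8 and 18.8 to 60.7 CPM) needed 1.51-fold and 1.43-fold unadjusted, and 2.53-fold and 2.23-fold for the same power at a lone call. Intervals within 2-fold were found for 76.8%, 94.8%, 98.1% and 98.7% of features from the lowest to the highest range, and intervals within 1.5-fold for 21.6%, 60.3%, 77.1% and 83.4%. The number at an unadjusted p under 0.05 was 95, 48, 13 and 5 in the same order, or 2.53%, 1.28%, 0.347% and 0.133%. Most of the features that came nearest to a difference were thus among those measured least precisely. Although the mitochondrial features were abundant, they varied more between bulls than most. At an unadjusted p of 0.05, 80% power needed a change of 2.18-fold for COX1, 2.05-fold for the joined feature and 2.13-fold for CYB. For a lone call of COX1 after adjustment, such power needed 5.83-fold. With only the 16 libraries, whose spread was smaller, the median change for 80% power was 1.39-fold unadjusted and 2.24-fold for a lone call.

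**Figure D3:**
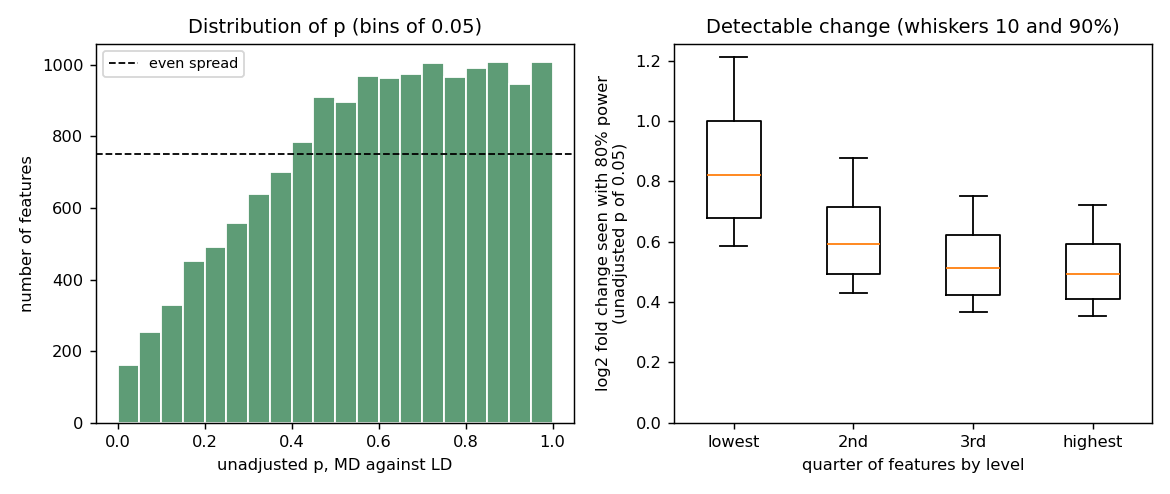
Left, number of features (vertical axis) by unadjusted p of MD against LD in steps of 0.05 (horizontal axis), with a dashed line at the 750.25 features that an even spread would give. Right, log2 fold change seen with 80% power at an unadjusted p of 0.05 (vertical axis) in 4 ranges of level from the lowest to the highest, each box holding the middle 50% of features with its median line and whiskers at 10 and 90%. Low p-values are fewer than high ones, and the detectable change is smaller at higher levels.

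The 2 features with the smallest p in each direction were examined bull by bull. Their identifiers could not be paired with gene names, and none passed the adjusted threshold. They were picked out of 15005 features by their p, so no unadjusted or permutation p of theirs is evidence on its own. ENSBTAG00000000177, with 10 exon bins, was at 1.68 CPM in the lowest MD bull, 8.07 at the median and 17.6 in the highest, against 0.194, 1.25 and 5.49 CPM in LD bulls. All MD bulls were above the LD median, and 5 were above every LD bull. The means were 8.86 ± 6.003 CPM in MD and 2.29 ± 2.11 CPM in LD bulls (SD, n = 8 each), with 5.16 ± 2.24 CPM in HD bulls. The log2 fold change was 1.96 (SE 0.53, 95% interval 0.88 to 3.04, edgeR adjusted p = 1.00, unadjusted p = 0.000897), and the two-sided exact permutation p was 0.00855. These values rest on 4 to 266 counts per library.

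ENSBTAG00000019386, with 6 exon bins, separated the diets more evenly. It was at 15.7 CPM in the lowest MD bull, 23.8 at the median and 40.6 in the highest, against 3.92, 13.7 and 18.04 CPM in LD bulls. Of the 8 MD bulls, 6 lay above every LD bull, and 6 LD bulls lay below every MD bull. The means were 26.3 ± 9.99 and 12.2 ± 5.25 CPM (SD, n = 8 each), with 33.2 ± 19.9 CPM in HD bulls. Its log2 fold change was 1.11 (SE 0.32, 95% interval 0.45 to 1.78, edgeR adjusted p = 1.00, unadjusted p = 0.00194). The exact permutation test gave a two-sided p of 0.000932 where 0.000155 is the smallest possible. When bulls were left out in turn the log2 fold change kept between 0.97 and 1.21, and it was 1.23 once reads outside exons were a covariate.

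Both features that were lower in MD bulls owed their fold change in part to a few LD bulls. ENSBTAG00000030913, with 14 exon bins, was at 2.72 CPM in the lowest MD bull, 3.30 at the median and 5.13 in the highest. In LD bulls it was at 2.11, 5.64 and 44.2 CPM, with LD bull 7 at the top and LD bull 6 next at 22.6 CPM. All MD bulls were below the LD median, and 6 LD bulls were above every MD bull. The means were 3.66 ± 0.943 and 12.1 ± 14.5 CPM (SD, n = 8 each), and HD bulls had 5.55 ± 2.92 CPM. The log2 fold change was -1.72 (SE 0.47, 95% interval -2.68 to -0.76, edgeR adjusted p = 1.00, unadjusted p = 0.00106), and -1.03 without LD bull 7. The two-sided exact permutation p was 0.0465.

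ENSBTAG00000013550, with 18 exon bins, was at 3.101 CPM in the lowest MD bull, 4.71 at the median and 6.53 in the highest. In LD bulls it was at 5.13, 6.86 and 42.1 CPM, and only LD bulls 6 (42.1 CPM), 1 (31.2 CPM) and 2 (12.3 CPM) were above 10 CPM. Of the MD bulls, 5 were below every LD bull. The means were 4.88 ± 1.18 and 14.5 ± 14.2 CPM (SD, n = 8 each), and HD bulls had 6.67 ± 3.36 CPM. The log2 fold change was -1.57 (SE 0.43, 95% interval -2.46 to -0.68, edgeR adjusted p = 1.00, unadjusted p = 0.00119), and -1.11 without LD bull 6. The exact permutation test gave a two-sided p of 0.00855. The bulls with high values were not the same for both features, apart from LD bull 6.

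**Figure D4:**
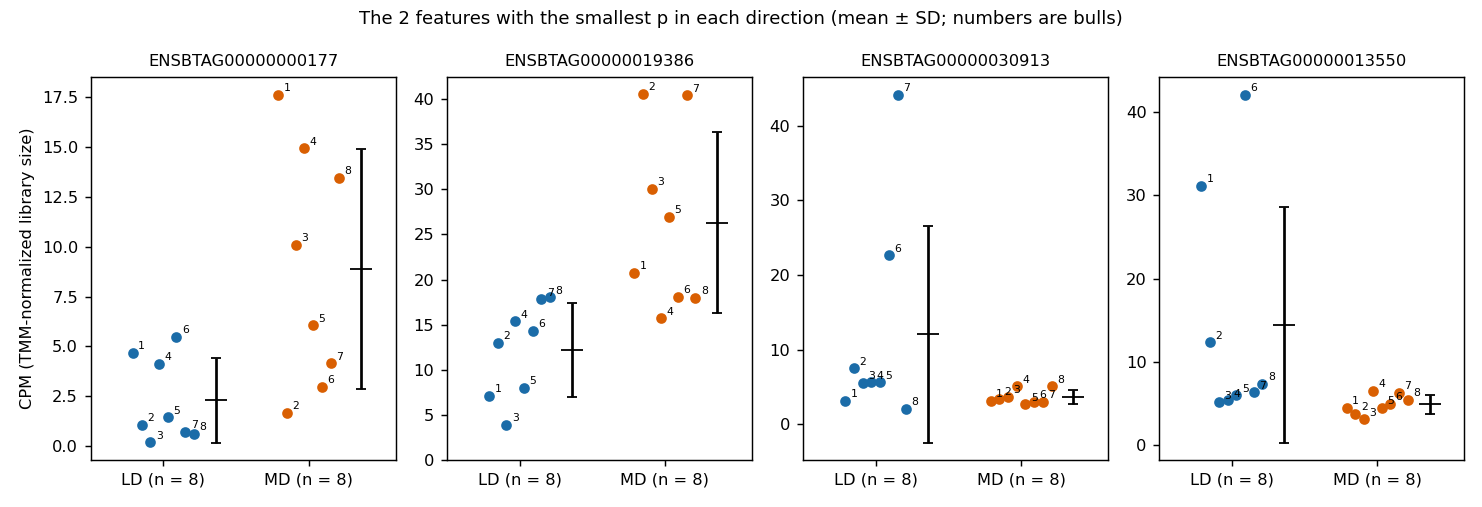
Level in CPM (vertical axis, TMM-normalized, a scale for each panel) of the 2 features with the smallest p in each direction, for 8 LD and 8 MD bulls. Points are bulls with their numbers and bars are mean ± SD. For ENSBTAG00000019386 all but 2 MD bulls are above every LD bull, and for ENSBTAG00000030913 and ENSBTAG00000013550 the wide LD bars come from LD bulls 7, 6 and 1.

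Single bulls stood at the end of the range in many of the 161 features. Of the 82 features higher in MD bulls, MD bull 3 was the highest of the 16 in 39 (47.6%), against 19.2% of all features tested. LD bull 8 was the lowest in 25 (30.5%, against 10.8% of all). Of the 79 features lower in MD bulls, LD bull 7 was the highest in 20 (25.3%, against 4.56% of all). The highest bull exceeded the next by more than 2-fold in 10 of the 82 (12.2%) and 7 of the 79 (8.86%), against 0.560% of all features. These features were chosen by their difference between the diets. That choice alone puts the highest and lowest bulls more often in the diet that fits the direction than among all features. The shares of all features are thus no even base, here and for the counts that follow. All are descriptions and were not tested. In 16 of the 82 all MD bulls were above the LD median, and in 36 of the 79 all were below it, against 107 and 124 of the 15005 features tested.

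Complete separation of the diets was not more frequent than regroupings of the bulls would give. Over all regroupings of 8 against 8, complete separation has a share of 0.000155, the smallest permutation p possible. Near that share, 2 of 15005 features (0.0133%) had all 8 bulls of one diet above all 8 of the other. One was lower in MD bulls (0.496 to 0.866 CPM, against 0.921 to 1.89 CPM in LD bulls), with a log2 fold change of -0.73 and an unadjusted p of 0.00265 by edgeR. The other was higher in MD bulls (14.8 to 18.1 CPM, against 11.5 to 14.7 CPM), with a log2 fold change of 0.32 and an unadjusted p of 0.0860. Their groups almost touched, and with CPM scaled by library size only, 0 features were separated.

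No feature had counts in all 8 bulls of one diet and in 0 of the other. Counts in at least 1 MD bull and in 0 LD bulls were found for 776 features, with at most 19 counts in a library. The reverse held for 662 features, with at most 50 counts. In at least 4 bulls of one diet and 0 of the other there were 19 features seen in MD and 17 seen in LD bulls. The feature that DESeq2 called with its beta prior was weakly measured too, but had counts in every MD and LD bull. It had 1 to 54 counts in MD bulls (median 5.5, 168 in all), 1 to 5 in LD bulls (median 2, 19 in all) and 0 to 3 in HD bulls. The log2 fold change of 1.00 (DESeq2 adjusted p = 0.0262) is shrunk toward no change by the prior, and the summed counts differ by more. The feature had too few counts to pass the filter used before edgeR.

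The use of exons within genes was compared as well, since the counts were deposited per exon bin. Among 12285 features with at least 2 measured bins (124377 bins), limma's diffSplice called 0 (0%) between MD and LD bulls. At an unadjusted p under 0.05 were 31 features (0.252%), far below the share of 0.05 that evenly spread p-values give on average. How large a change in exon usage could have been seen was not computed, so 0 calls do not exclude such changes. With only the 16 libraries 1 of 12401 features was called (limma adjusted p = 0.0261). With all diets in the fit, 1 feature was called without LD bull 2 (limma adjusted p = 0.0215) and 1 without LD bull 3 (limma adjusted p = 0.0668). For the joined mitochondrial feature and the 4 features above, the unadjusted limma p was from 0.345 to 1.00.

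The libraries as a whole were not grouped by diet. In a principal component analysis of the 500 most variable features, PC1 held 23.9% of the variance. Its scores were -2.52 ± 12.7 in MD bulls and 2.52 ± 12.5 in LD bulls (SD, n = 8, exact permutation p = 0.434, two-sided). PC2 held 10.7%, with scores of 0.42 ± 6.54 and -0.42 ± 10.2 (exact permutation p = 0.851). LD bull 2 and MD bull 3 stood at the ends of PC1, and the difference of MD from LD on PC1, -5.04, was -1.62 without LD bull 2 and -2.43 without MD bull 3. By distance between libraries over all features tested, the nearest library came from the other diet for 11 of the 16 bulls, and 9 bulls were on average closer to the bulls of the other diet than to their own. Neither the counts on genes (exact permutation p = 0.311), the features detected (17819 ± 308 and 17788 ± 280, p = 0.839), the share of reads outside exons (14.5 ± 3.28% and 13.3 ± 1.83%, p = 0.412) nor the share of the 10 most abundant features (5.72 ± 2.08% and 6.63 ± 2.69%, p = 0.486) differed beyond the spread between bulls. After adjustment over 8 library measures the smallest p was 0.778 (exact permutation tests). The difference in the share of the 10 most abundant features, -0.910 percentage points, was -0.059 without LD bull 2 and -0.584 without MD bull 3. It was -1.40 without MD bull 2. The difference in features detected, 30.6, turned to -24.2 without LD bull 2 and to -63 without MD bull 3.

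**Figure D5:**
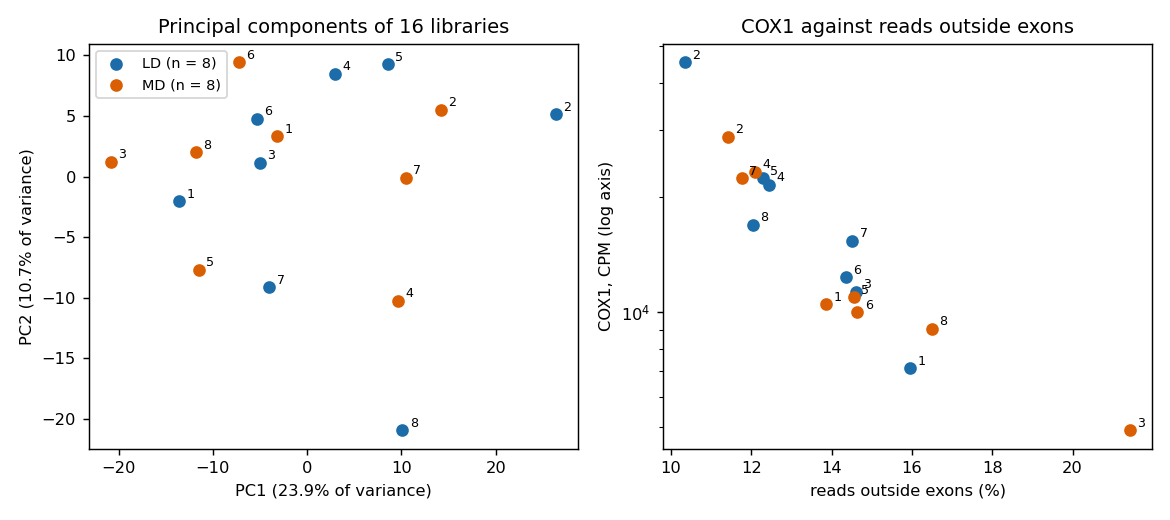
Left, scores of the 16 libraries on PC1 and PC2 (axes, with their share of the variance). Right, COX1 in CPM (vertical log axis) against the share of reads outside exons in percent (horizontal axis). Points are bulls with their numbers, LD in blue and MD in orange. The diets are mixed in both panels, and bulls with a larger share outside exons had less COX1.

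The spread between bulls was compared last, without a test. The median SD of log2 CPM over features was 0.333 in MD and 0.309 in LD bulls. It was larger in MD bulls for 8626 of 15005 features (57.5%) and in LD bulls for 6379.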

How the data were processed

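Testicular mRNA of 16 bulls (8 MD, 8 LD) was compared, with 8 HD bulls kept in the fit. The members and lists were chosen with earlier results of these data known. The values the authors deposited are read counts per exon bin (210707 bins), not normalized. Per the submitters' processing notes and the study's methods, stranded 75 base single-end reads were mapped with TopHat2 2.0.10 and Bowtie 1.1.2 to UMD3.1. The counter of the bins is not given in the sources used here. A read over several bins may be counted in each, and 87 features join overlapping genes. The methods also give an end of the diets slightly before 32 wk.

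The count of a feature was the sum over its bins. Testing used edgeR 4.0.16 under R 4.3.3 (TMM, filterByExpr, glmQLFit, glmQLFTest, all 24 libraries, diet as the factor), Benjamini-Hochberg adjustment and a threshold of 0.1. The standard error was the log2 fold change over the square root of F, and power came from the noncentral t distribution. DESeq2 1.42.0 served as another tool. For exon usage, limma 3.58.1 was used (voom, diffSplice) on bins with a mean of at least 5 counts. Single values were compared by two-sided exact permutation over 12870 regroupings, on log2(CPM + 0.5) for features, and correlations with 100000 resamples (R). Tables and figures were made in Python 3.11.15 with matplotlib 3.10.9. The statistics were tested on simulated data.

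Libraries held 11676948 to 19470903 counts, and the standard error was larger for features with few counts. Named are the mitochondrial genes of the study with an identifier and the 2 unnamed identifiers of smallest p in each direction. Of 24525 identifiers, 0 could be paired with symbols, so gene lists, cell type markers, gene positions and sequences were not analysed here. Alternatives were other normalizations, filters, tools, libraries, bins and covariates, and each bull left out in turn. Fits of the 16 libraries with the share outside exons, or with bulls left out, and the mitochondrial ratios were added after seeing the data.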

Additional observations from a re-analysis of the deposited data

Results flagged for a closer look

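In 4 of 34 sets of 8 values tested, the lowest or highest bull of a diet lay farther from its neighbour than the critical gap of 0.526 of the range. Chance gives about 1 in 20, or 1.7 of 34. LD bull 3 had 19470903 counts on genes, and the next LD bull 15065648. LD bull 2 had 4.41% of its counts on COX1 (next LD bull 2.34%), 45243 CPM of COX1 (next 22458 CPM) and 12.6% of its counts on the 10 most abundant features (next 7.77%). The values of LD bull 2 overlap in what they measure, since COX1 is among the 10 most abundant features.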

How the results depend on the processing

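Calls between MD and LD bulls stayed at 0 under every alternative run, each bull left out included (0 to 0), except for 1 call by DESeq2 with the beta prior. The number at an unadjusted p under 0.05, 161, was 475 without a filter on low counts, 254 with only the 16 libraries, 303 with these and the share outside exons as a covariate, 262 by DESeq2 with the beta prior and 271 with its defaults. Leaving out 1 bull gave 120 to 272 (269 without MD bull 2, 272 without MD bull 7), and 206 to 534 with only the 16 libraries (406 without LD bull 1, 493 without MD bull 2, 534 without MD bull 7). The median log2 fold change seen with 80% power, 0.59, was 0.70 with no filter, 0.48 with the 16 libraries, 0.48 with these and the run of title numbers as a block, 0.51 with the covariate, 0.40 with the 16 libraries and the covariate, and 0.60 to 0.62 with a bull left out. Exon usage gave 1 call with the 16 libraries, and 0 to 1 with a bull left out (1 without LD bull 2 and without LD bull 3). Its number at an unadjusted p under 0.05 was 60 with the 16 libraries, 10 with at least 20 counts per bin and 22 to 40 with a bull left out. Separated features numbered 0 by library size only. With the covariate, COX1 was at 0.014 and CYB at 0.15 on the log2 scale, and CYB at 0.094 with the 16 libraries and the covariate. With a bull left out COX1 ranged from -0.55 to -0.03, the joined feature from -0.49 to -0.03 and CYB from -0.33 to 0.079. The difference of MD from LD changed sign for the features detected (-63 to 101.3), the mean distance (-0.0058 to 0.0261) and PC2 (-2.10 to 2.37), none beyond the spread between bulls. The causes were not tested. Other alternatives kept the direction and side of the threshold. No paired analysis was possible because the bulls of MD and LD share no number in the labels. Features with few counts are measured least precisely, and small changes in them were not detectable here.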
